A study of Cricetulus griseus with 8 samples.

Results

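The genes described here carry pyruvate into mitochondria, turn it into acetyl-CoA, run the tricarboxylic acid (TCA) cycle and oxidise fatty acids. They were chosen by name, as a list of 50 gene symbols, from a table of 26776 named genes. Of these, 49 were matched and 48 had reads, and all 48 averaged 10 normalized counts or more, the level set for testing, and were tested among 13494 genes. Etfb, one of the subunits of the electron transfer flavoprotein, was listed at 0 in every library, while its partner Etfa had a mean of 5874 normalized counts in phagocytes alone. The annotation used for counting is not given in the sources used here, so this 0 is not read as a level of Etfb. Acot2, a mitochondrial acyl-CoA thioesterase, was not analysed here.

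RNA came from LR73 cells, a Chinese hamster line that the labels call fibroblasts, grown in alpha-MEM with fetal bovine serum. One group of 4 libraries held phagocytes alone, and the other group of 4 held phagocytes cultured with apoptotic Jurkat cells, a human T cell line that had received UV-C light at 1500 mJ and a further 4 h of culture. No genetic change is named in the labels, but all data columns carry the prefix GFP, which the labels do not explain. The length of the co-culture is not given in the sources used here. The series calls the libraries biological replicates without saying how the cultures were separated. The p-values set the difference between groups against the spread between these libraries, and how far that spread covers separate cultures is not known.

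Depth ran from 22.7 to 29.7 M (mega) reads per library, counted over named genes. Of 9 fibroblast markers, 5 averaged 100 normalized counts or more, among them Vim and Fn1, while the type I collagen genes Col1a1 and Col1a2 were near 0 and Thy1 was at 0. Of 5 epithelial markers 1 reached that level, Cdh1, at 242 normalized counts in phagocytes alone and 206 in co-cultures. Krt18 and Krt19 were at 0. Of the 4 matched myeloid markers, 0 reached it. Of 10 T cell markers, Cd3d, Cd3g and Cd2 were at 0 in every library, and the summed level of the list was 183 to 251 normalized counts in phagocytes alone and 173 to 201 in co-cultures, most of it Lat. Lck (0 against 2.3 normalized counts), Zap70 (0 against 1.29) and Ptprc (0.761 against 3.59) were at trace level, with more reads in the co-cultures. Whether human RNA contributed reads to the metabolic genes below was not tested. In these bulk samples a change in the kinds of cells present and a change in RNA per cell cannot be told apart.

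Pyruvate made by glycolysis enters mitochondria through the MPC carrier and is oxidised to acetyl-CoA by the pyruvate dehydrogenase (PDH) complex. PDH kinases (PDK) phosphorylate and switch off this complex, and PDH phosphatases (PDP) switch it on again. Acetyl-CoA is burned in the TCA cycle. Long-chain fatty acids are activated to acyl-CoA, cross the inner membrane as carnitine esters and are shortened by repeated beta oxidation, which also yields acetyl-CoA.

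The median log2 fold change of the list with apoptotic cells was -0.005, beside 0.001 over all tested genes, with 21 genes above 0 and 27 below. Within it, 6 genes rose by limma at a Benjamini-Hochberg adjusted p under 0.05: the kinases Pdk1 and Pdk4, the TCA cycle subunit Ogdh, the fatty acid oxidation genes Cpt2 and Acadvl, and the lipid droplet gene Plin2. No gene fell by limma. The 6 rises were 12.5% of the 48 genes, where 6.36% of all tested genes were called higher and 5.31% lower. Counting both directions, 11.7% of all tested genes were called, near the share among these genes. With the replicate block 2 of the 48 genes were called higher, near the 3.69% of all genes. With 1 library left out, 9 were called higher without alone library 1, and 2 or 3 without any other library. Among genes that averaged 100 normalized counts or more, a level that all 48 reached, 7.37% were called higher and 5.92% lower.

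The changes were small. The median size of the change was 3.8% and 34 of the 48 genes changed by less than 5%, while the largest rise was 1.21-fold. The median size of the log2 fold change was 0.0535, against 0.0963 over all tested genes. The latter set also holds genes averaging under 100 normalized counts, so these medians were not matched for level. The median standard error (SE) was 0.0456, against 0.0574 for all genes averaging 100 normalized counts or more. At an unadjusted p under 0.05 there were 8 higher (16.7%, with a background of 13.7%) and 2 lower (4.17%, with a background of 12.8%), the latter being Idh2 and Eci1. On recovered reads, edgeR called 5 genes higher and 0 lower (backgrounds of 6.2% and 5.37%), and DESeq2 called 6 and 0 (6.71% and 5.47%).

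The groups did not overlap in 9 genes that were higher (18.8%, where 11.4% of all tested genes were) and in 1 that was lower (2.08%, where 9.72% were). Besides the 6 called genes, the higher ones were Idh3a, Cpt1a and Acadl, and the lower one was Idh2.

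**Figure D1:**
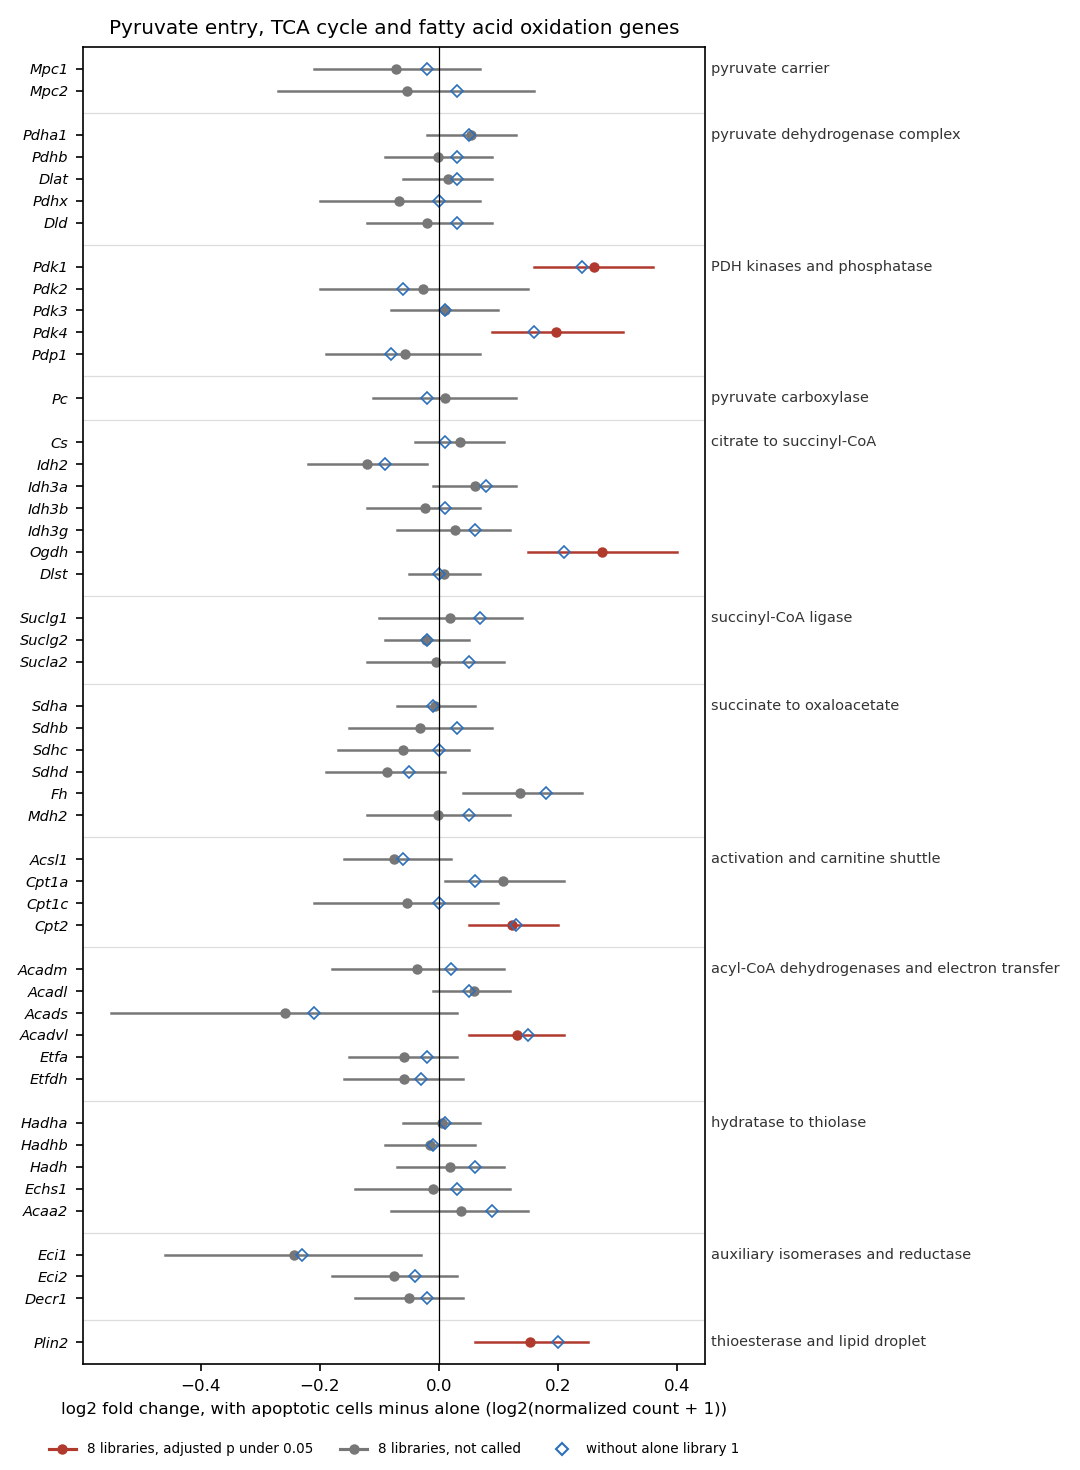
Log2 fold change (circles) with its 95% interval (lines) for the 48 tested genes, ordered by role, with red for an adjusted p under 0.05, and the value without alone library 1 (diamonds). Pdk1, Pdk4, Ogdh, Cpt2, Acadvl and Plin2 lie to the right of 0 with intervals that do not reach it, and most other genes lie within 0.1 of it. Among genes not called, the intervals of Fh and Cpt1a also lie above 0, and those of Idh2 and Eci1 below it.

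None of the 7 genes of the carrier and the PDH complex passed by limma, edgeR or DESeq2, and none had an unadjusted p under 0.05 by limma. Mpc1 and Mpc2, which together form the pyruvate carrier, had log2 fold changes of -0.07 (95% interval -0.21 to 0.07) and -0.05 (-0.27 to 0.16). Pdha1, the catalytic E1 alpha subunit that the kinases phosphorylate, stood at 4602, 4658, 4657 and 4787 normalized counts in alone libraries 1 to 4. It stood at 4773, 4740, 5083 and 4833 in co-culture libraries 1 to 4, so that the groups overlapped narrowly (0.05, interval -0.02 to 0.13, limma adjusted p = 0.322). Dlat, the E2 acetyltransferase core, changed by 0.01 (interval -0.06 to 0.09) and Dld, the E3 subunit shared with oxoglutarate dehydrogenase, by -0.02 (-0.12 to 0.09). Pdhb and the E3-binding subunit Pdhx did not pass either, with adjusted p = 0.994 and 0.535 by limma. Pc, which makes oxaloacetate from pyruvate, had means of 732 ± 33.2 and 737 ± 39.7 normalized counts (SD, n = 4).

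Of the 5 listed enzymes that set the phosphorylation of the complex, 2 rose. The counts in this and the next role groups cover few genes each and stand beside the 6.36% of all tested genes that were called higher. Pdk1, a PDH kinase and known target of the hypoxia factor HIF, had 1026, 1096, 1087 and 1099 normalized counts in phagocytes alone and 1235, 1384, 1296 and 1250 in co-cultures. Every co-culture library was above every library of phagocytes alone. Pdk1 rose by 19.9%, and its log2 fold change was 0.26 (SE 0.05, limma adjusted p = 0.00605).

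Pdk4, the kinase isoform induced in many tissues by fasting and fatty acids, had 677, 773, 709 and 739 normalized counts in phagocytes alone. In co-cultures it had 813, 846, 850 and 809, again with no overlap between the groups. The rise was 14.4%, and the log2 fold change was 0.20 (SE 0.05, limma adjusted p = 0.0302). This call did not survive leaving out alone library 3, alone library 4 or any single co-culture library (limma adjusted p = 0.0546 to 0.0909) and with the replicate block (adjusted p = 0.0629).

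The other isoforms did not pass the test. Pdk3 stood at 758 ± 12.4 and 763 ± 23 normalized counts (SD, n = 4), with an interval of -0.08 to 0.10 for its log2 fold change. Pdk2, the least abundant in counts of the family, stood at 252 ± 22.9 and 247 ± 17 normalized counts, with an interval of -0.20 to 0.15. Whether the 4 kinase genes differ in their response was not tested.

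The phosphatases that remove these phosphates were represented in the list by Pdp1, at 766 ± 47.5 and 736 ± 43.2 normalized counts (SD, n = 4), with a log2 fold change of -0.06 (interval -0.19 to 0.07, limma adjusted p = 0.571). The other catalytic subunit, Pdp2, belongs to the further genes of the pathway described below. It had 652, 664, 694 and 632 normalized counts in phagocytes alone and 483, 485, 540 and 477 in co-cultures. The groups were well apart, and Pdp2 fell by 24.9% (log2 fold change -0.41, SE 0.05, limma adjusted p = 0.00125). In log2 size this exceeded every value among the 48 genes. Pdpr, the regulatory subunit of the phosphatase, did not pass with all libraries (-0.01, limma adjusted p = 0.946). Of 16 alternative settings, Pdpr was called lower in 1, the one without alone library 1 (-0.13, limma adjusted p = 0.0467). In that setting 12.5% of all genes tested were called lower. Across the alternatives the value of Pdpr ran from -0.13 to 0.06.

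**Figure D2:**
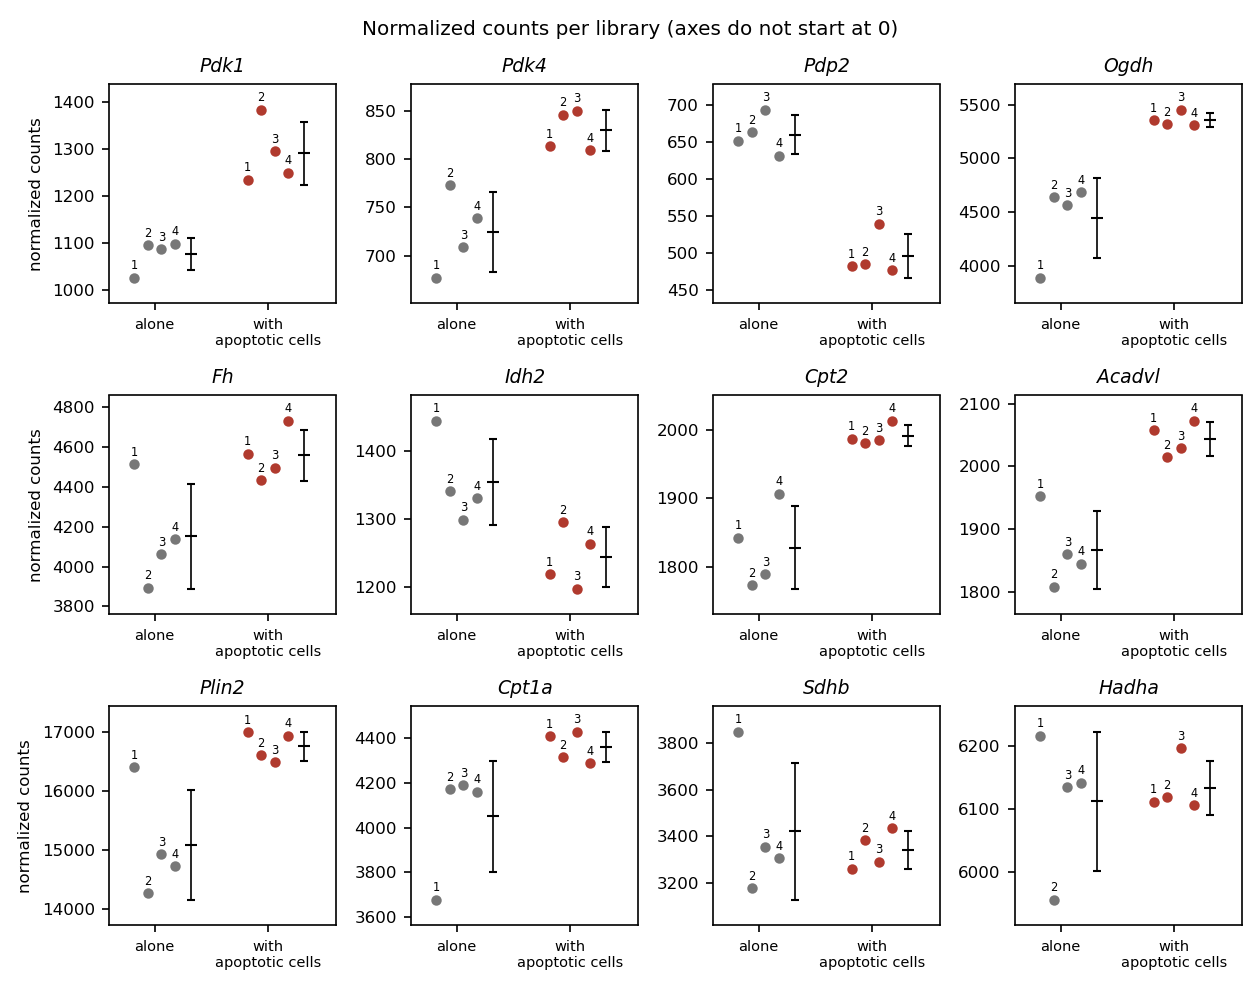
Normalized counts in each library (points, numbered 1 to 4) with group mean and SD (n = 4), for phagocytes alone (grey) and with apoptotic cells (red), on axes that do not start at 0. Pdk1, Pdk4, Ogdh, Cpt2, Acadvl, Plin2 and Cpt1a are higher and Pdp2 and Idh2 lower in every co-culture library, while Fh overlaps through alone library 1 and Sdhb and Hadha overlap throughout.

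In the first part of the TCA cycle, 1 of 7 genes rose. Ogdh, the E1 subunit of the oxoglutarate dehydrogenase complex that turns oxoglutarate into succinyl-CoA, had 3886, 4639, 4564 and 4682 normalized counts in phagocytes alone and 5354, 5321, 5453 and 5308 in co-cultures. Alone library 1 was far below its group and the co-cultures were close together. Ogdh rose by 20.6% (log2 fold change 0.27, SE 0.06, limma adjusted p = 0.0109), and the value was 0.21 without alone library 1 (adjusted p = 6.57e-07). Dlst, the E2 core of the same complex, did not pass and changed by 0.01, with an interval of -0.05 to 0.07.

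Citrate synthase (Cs), which opens the cycle, stood at 5612 ± 199 and 5746 ± 112 normalized counts (SD, n = 4), with an interval of -0.04 to 0.11. The NAD-dependent isocitrate dehydrogenase subunits Idh3a, Idh3b and Idh3g changed by 0.06, -0.02 and 0.03 on the log2 scale, none past the limma threshold. Idh3a, the catalytic subunit, had 6542, 6158, 6229 and 6470 against 6570, 6632, 6674 and 6615 normalized counts. Its groups lay side by side without overlap, and it passed without alone library 1 (0.08, limma adjusted p = 0.025) and under array weights (adjusted p = 0.0396).

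Idh2, the NADP-dependent mitochondrial isoform, went the other way, with 1444, 1341, 1299 and 1331 normalized counts in phagocytes alone and 1219, 1296, 1198 and 1264 in co-cultures. The lowest alone library and the highest co-culture library were almost level. Its log2 fold change was -0.12 (SE 0.05), and limma gave an adjusted p of 0.115.

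From succinyl-CoA to oxaloacetate, none of 9 genes passed by limma, edgeR or DESeq2. The succinyl-CoA ligase subunits Suclg1, Suclg2 and Sucla2 had log2 fold changes of 0.02 (interval -0.10 to 0.14), -0.02 (-0.09 to 0.05) and -0.004 (-0.12 to 0.11). Sdha, the flavoprotein of succinate dehydrogenase, stood at 10749 ± 191 and 10708 ± 211 normalized counts (SD, n = 4), and its interval of -0.07 to 0.06 was among the narrowest. The iron-sulfur subunit Sdhb and the membrane anchors Sdhc and Sdhd changed by -0.03, -0.06 and -0.09 on the log2 scale. Malate dehydrogenase (Mdh2) had means of 4436 ± 381 and 4418 ± 116 normalized counts.

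Fh, the fumarase gene, was the one in this stretch with an unadjusted p under 0.05 (0.0132 by limma, adjusted p = 0.0835). It had 4516, 3893, 4061 and 4136 normalized counts in phagocytes alone and 4568, 4435, 4497 and 4733 in co-cultures. Alone library 1 lay among the co-cultures and the other 3 alone libraries lay below them. Its log2 fold change was 0.14 (SE 0.05). Without alone library 1 it was 0.18 and passed (limma adjusted p = 4.95e-05), as it did under array weights (adjusted p = 3.52e-04).

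In the activation of fatty acids and their entry into mitochondria, 1 of 4 genes rose. Cpt2, the inner-membrane carnitine palmitoyltransferase that gives acyl-CoA back in the matrix, had 1843, 1774, 1790 and 1907 normalized counts in phagocytes alone and 1987, 1980, 1985 and 2013 in co-cultures. The co-cultures were nearly level with each other and all above phagocytes alone. Cpt2 rose by 8.89% (log2 fold change 0.12, SE 0.04, limma adjusted p = 0.0462). Cpt2 was not called when alone library 2, alone library 3 or any single co-culture library was left out (limma adjusted p = 0.101 to 0.133), nor by edgeR (adjusted p = 0.0528).

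Cpt1a, the outer-membrane enzyme that commits fatty acids to oxidation, had 3677, 4172, 4189 and 4160 normalized counts in phagocytes alone and 4407, 4315, 4428 and 4287 in co-cultures. The groups did not overlap, but alone library 1 lay far below the other 3. The log2 fold change was 0.11 (SE 0.04, limma adjusted p = 0.152), and 0.06 without that library (adjusted p = 0.0744). The isoform gene Cpt1c and the acyl-CoA synthetase Acsl1 had log2 fold changes of -0.05 (interval -0.21 to 0.10) and -0.07 (-0.16 to 0.02).

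Of 6 tested acyl-CoA dehydrogenase and electron transfer genes 1 rose, Acadvl, which oxidises very long acyl chains at the inner membrane. It had 1953, 1808, 1860 and 1845 normalized counts in phagocytes alone and 2058, 2015, 2029 and 2073 in co-cultures, with no overlap. Acadvl rose by 9.49% (log2 fold change 0.13, SE 0.04, limma adjusted p = 0.0383). The call was lost when any single library other than alone library 1 was left out (adjusted p = 0.0827 to 0.112).

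The dehydrogenases for shorter chains did not pass. Acadl, for long chains, stood at 3988 ± 34.1 and 4155 ± 87.4 normalized counts (SD, n = 4) without overlap (0.06, interval -0.01 to 0.12, limma adjusted p = 0.24). Acadm, for medium chains, changed by -0.04 (interval -0.18 to 0.11). Acads, for short chains, had the fewest reads of all tested genes in the list, with 71 in 1 library, and its log2 fold change of -0.26 had an interval of -0.55 to 0.03. The electron acceptors Etfa and Etfdh changed by -0.06 each.

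Of the 5 genes that complete each round of beta oxidation, none passed with all libraries by limma, edgeR or DESeq2, and none had an unadjusted p under 0.05 by limma. Hadha, the trifunctional protein alpha subunit, had 6217, 5955, 6135 and 6142 normalized counts in phagocytes alone and 6112, 6119, 6197 and 6106 in co-cultures. The groups overlapped throughout, and the interval of its log2 fold change was -0.06 to 0.07. Hadhb (-0.01), Hadh (0.02), the crotonase Echs1 (-0.01) and the thiolase Acaa2 (0.04) lay close to 0. Of the alternatives tried, Acaa2 passed without alone library 1 only (0.09, limma adjusted p = 0.0349).

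The auxiliary enzymes for unsaturated fatty acids had 3 negative values, and none passed by limma, edgeR or DESeq2. Eci1, an enoyl-CoA isomerase, had 236, 229, 248 and 200 normalized counts in phagocytes alone and 173, 212, 176 and 210 in co-cultures. The groups overlapped, and the log2 fold change was -0.24 (SE 0.10, limma adjusted p = 0.134). Eci2 and Decr1 stood at -0.08 (interval -0.18 to 0.03) and -0.05 (-0.14 to 0.04).

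Plin2, which coats lipid droplets and was the most abundant in counts of the list, had 16413, 14266, 14933 and 14723 normalized counts in phagocytes alone. In co-cultures it had 17003, 16608, 16493 and 16942, and the groups did not overlap, although alone library 1 came close to co-culture library 3. Plin2 rose by 11.1% (log2 fold change 0.15, SE 0.04, limma adjusted p = 0.0389), and the value was 0.20 without that library. Leaving out any other single library ended the call (adjusted p = 0.0812 to 0.116).

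For the 42 genes that were not called, the data set limits on the change. In 32 of them the 95% interval of the log2 fold change lay within 0.2 of 0. The widest bound was that of Acads, followed by Eci1 and Mpc2. These intervals come from limma and rest on the spread between libraries, which includes counting error. That error weighs most in Acads and Eci1, since the other 46 of the 48 genes had at least 200 reads in every library.

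Alone library 1 stood apart over all genes. Chi-square per degree of freedom between recovered reads was 17.9 to 33.4 in its pairs with the other alone libraries, against 1.77 to 3.46 among those. Of the 48 genes, it held the highest value of its group in 32 (66.7%, where this was so in 39.4% of all tested genes) and the lowest in 12 (25%, against 39.6%). Its median deviation from the other 3 alone libraries was 0.12 on the log2 scale, beside 0.01 over all tested genes. By role, the deviation was 0.27 for the carrier, 0.20 for the steps from succinate to oxaloacetate, 0.20 for succinyl-CoA ligase and 0.15 for the steps from hydratase to thiolase. The PDH kinases and phosphatase went the other way with -0.10, and Ogdh (-0.25), Cpt1a (-0.18) and Pdk4 (-0.13) were all lowest in this library.

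Without alone library 1, 9 of the 48 genes were called higher and none lower, where 13.4% of all genes tested were higher and 12.5% lower. The list's median log2 fold change became 0.019, beside -0.002 over all tested genes, and 30 genes instead of 21 lay above 0. The genes added were Idh3a, Fh and Acaa2. The median coefficient of variation within phagocytes alone was 5.45% with this library and 2.78% without it, against 2.51% in co-cultures. What set this library apart is not stated in the labels, and its part in the results was examined by leaving it out and by array weights alone. The latter gave it a weight of 0.124, against 0.934 to 1.82 for the other libraries, and called 8 of the 48 genes higher, where 13.4% of all tested genes were.

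**Figure D3:**
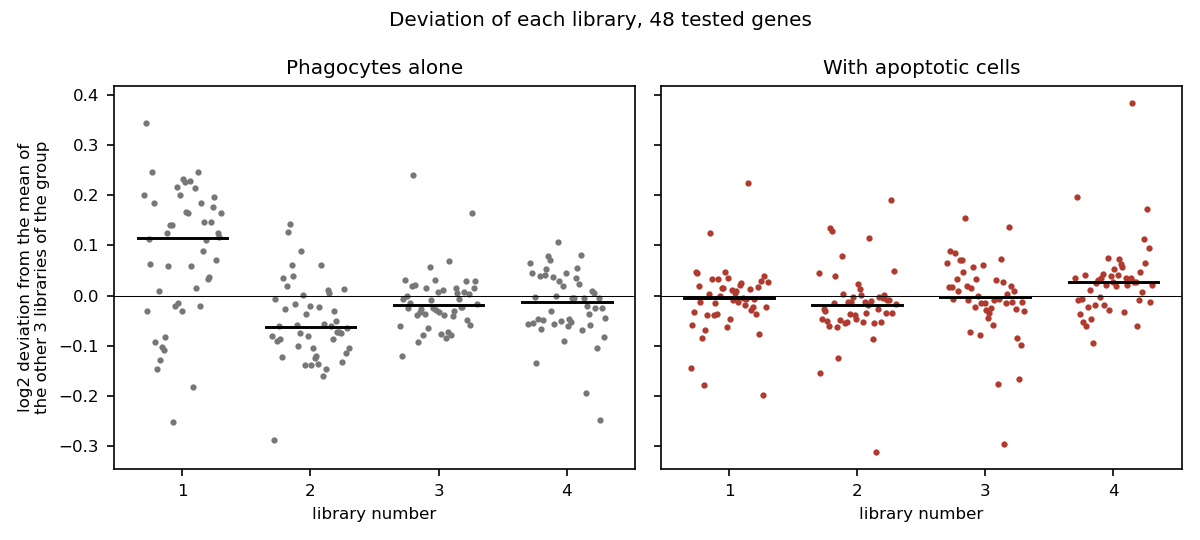
Log2 deviation of each library from the mean of the other 3 of its group, for the 48 tested genes (points) with the median (line). The median is 0.12 in alone library 1 and lies between -0.06 and 0.03 in the other 7 libraries.

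The 6 calls differed in how they stood up to other settings. Pdk1 and Ogdh passed in all 16 alternatives, with log2 fold changes of 0.23 to 0.28 and 0.21 to 0.30. Pdk4 passed in 9 of 16, and Cpt2, Acadvl and Plin2 each in 6 of 16. TMM scaling, no filter on low values and the replicate block each ended the calls of Cpt2, Acadvl and Plin2 (adjusted p = 0.052 to 0.106). All 6 kept a positive value in every alternative, and Pdp2 stayed negative and called in all 16 (-0.45 to -0.39).

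**Figure D4:**
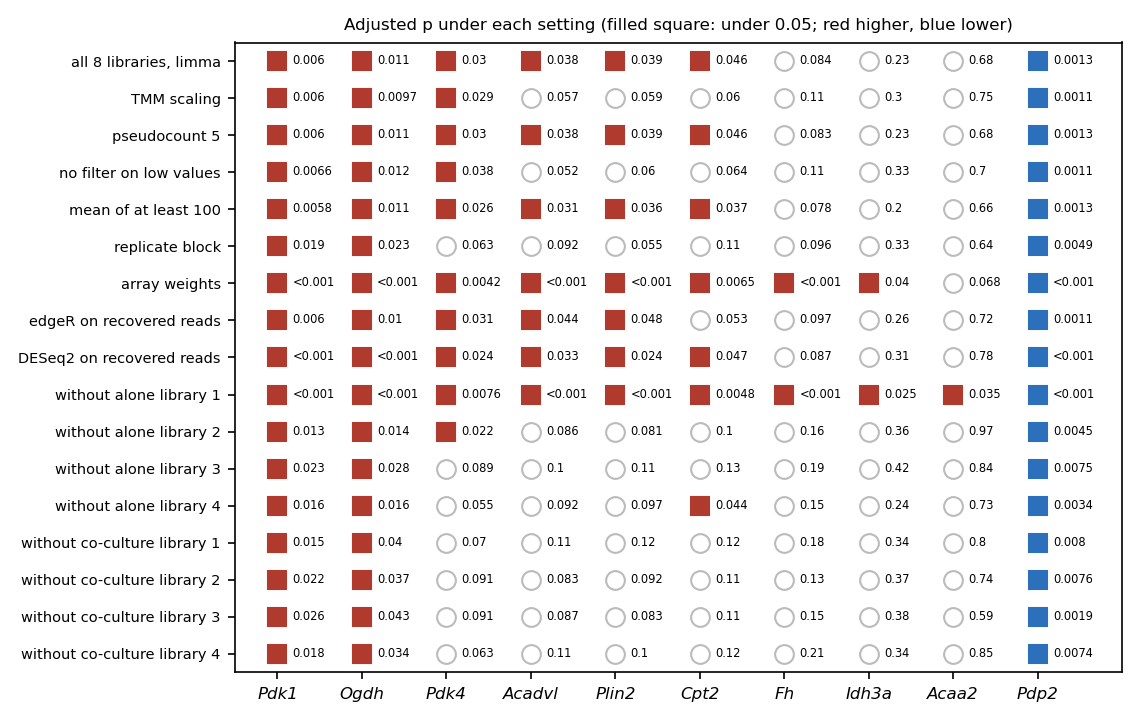
Adjusted p for 10 genes (columns) with all 8 libraries and under 16 other settings (rows), with filled squares under 0.05 (red higher, blue lower) and open circles above it. Pdk1, Ogdh and Pdp2 pass in every row, and Fh, Idh3a and Acaa2 pass in at most 2 rows, of which one leaves out alone library 1.

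The other genes of these pathways were taken from a list of 109 symbols, of which 84 were tested. Of these, 5 rose (5.95%, where 6.36% of all tested genes did) and 6 fell (7.14%, where 5.31% did), and their median log2 fold change was 0.001. With the replicate block 2 were called higher and 3 lower. With 1 library left out, 9 and 13 were called without alone library 1, and 2 to 4 and 2 to 7 without any other library. Among partners of PDH and the TCA cycle, 0 of 23 rose by limma, edgeR or DESeq2 and 3 fell by limma, namely Pdp2, Idh1 and Me3. At an unadjusted p under 0.05 there were 2 higher and 4 lower among these 23, where 13.7% of all tested genes were higher and 12.8% lower. Idh1, the cytosolic NADP-dependent isocitrate dehydrogenase, went from 1486 ± 37.5 to 1344 ± 17.2 normalized counts (SD, n = 4, limma log2 fold change -0.15, SE 0.04, adjusted p = 0.0245). Me3, a mitochondrial malic enzyme, went from 479 ± 36.4 to 392 ± 22.5 (-0.29, SE 0.07, adjusted p = 0.0211). The Idh1 call ended without alone library 3 or any single co-culture library (limma adjusted p = 0.0618 to 0.0865) and with the replicate block (adjusted p = 0.0816), and the Me3 call without alone library 4 and without co-culture library 2 and 3, each left out in turn (adjusted p = 0.0571 to 0.0684).

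In uptake and activation of fatty acids, 2 of 13 rose. Acsl6, a long-chain acyl-CoA synthetase, had 22.8, 14.2, 13.2 and 20.7 normalized counts in phagocytes alone and 62.2, 52, 70.3 and 60.7 in co-cultures. Low as it was, every co-culture library lay far above every library of phagocytes alone (log2 fold change 1.76, SE 0.19, limma adjusted p = 3.44e-04), and this scale understates changes at such levels. Cd36, a fatty acid uptake receptor that also binds apoptotic cells, had 112, 112, 130 and 110 against 145, 146, 145 and 155 normalized counts (0.35, SE 0.08, adjusted p = 0.019). This call ended when alone library 4 or co-culture library 1, 2 or 4 was left out (limma adjusted p = 0.0507 to 0.0624) and with the replicate block (adjusted p = 0.0619). The carnitine carrier Slc25a20, which works between the Cpt1 and Cpt2 steps, was not called (-0.08, interval -0.17 to 0.00).

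Among partners of mitochondrial beta oxidation, 2 of 14 fell by limma and 0 rose by limma, edgeR or DESeq2. The same 2 were the only ones with an unadjusted p under 0.05. Over all tested genes, 5.31% were called lower by limma and 12.8% were lower at an unadjusted p under 0.05. One of them, Acad11, an acyl-CoA dehydrogenase, went from 469 ± 31.4 to 392 ± 13.6 normalized counts (SD, n = 4, limma log2 fold change -0.26, adjusted p = 0.0216). Every co-culture library was below every library of phagocytes alone. The call ended when one of alone libraries 3 and 4 or of co-culture libraries 2 to 4 was left out (limma adjusted p = 0.0592 to 0.0724) and with the replicate block (adjusted p = 0.0685).

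Of 11 peroxisomal genes 1 fell, Crot, which makes carnitine esters of medium chains for export to mitochondria. It had 1158, 1082, 1105 and 1067 normalized counts in phagocytes alone and 947, 935, 953 and 902 in co-cultures, with a clear gap between the groups (-0.24, SE 0.04, limma adjusted p = 0.00526). Of 9 lipid droplet and lipolysis genes 1 rose, Abhd5, the activator of the lipase Pnpla2, from 1001 ± 31.4 to 1109 ± 28.4 normalized counts (0.15, limma adjusted p = 0.0382), a call that ended with any single library other than alone library 1 left out (adjusted p = 0.0791 to 0.117). The Abhd5 call also ended with the replicate block (adjusted p = 0.104), TMM scaling (0.0508) and no filter on low values (0.0507). Pnpla2 itself had a log2 fold change of -0.10 (interval -0.18 to -0.01, limma adjusted p = 0.127), and Hilpda of -0.03. The groups did not overlap in Pnpla2, with 1526 to 1656 normalized counts in phagocytes alone and 1490 to 1516 in co-cultures. Of 16 alternative settings, Pnpla2 was called lower under array weights only (limma adjusted p = 0.0375).

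Among 14 tested regulators and target genes of PPAR, ERR and PGC1, 2 rose. Pprc1, a coactivator of the PGC1 family, had 6412, 7324, 7205 and 7467 normalized counts in phagocytes alone and 8531, 8569, 8379 and 8231 in co-cultures. The groups did not overlap, and the log2 fold change was 0.25 (SE 0.05, limma adjusted p = 0.00736). Nrf1, a transcription factor for nuclear genes of mitochondria, went from 2982 ± 23.5 to 3265 ± 59.7 normalized counts (SD, n = 4, 0.13, limma adjusted p = 0.0195), a call that ended when alone library 3 or co-culture library 1, 2 or 4 was left out (adjusted p = 0.0636 to 0.0706) and with the replicate block (adjusted p = 0.0701).

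The receptors Ppara, Ppard and Esrra did not pass, with log2 fold changes of 0.05, -0.03 and 0.05, and neither did the coactivator gene Ppargc1b (0.04, interval -0.24 to 0.33). Ppargc1a was at 0 in every library. Angptl4, a PPAR target gene with 14.8 ± 3.61 and 21 ± 4.77 normalized counts (SD, n = 4), overlapped between the groups (0.48, interval -0.02 to 0.98, limma adjusted p = 0.203).

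**Figure D5:**
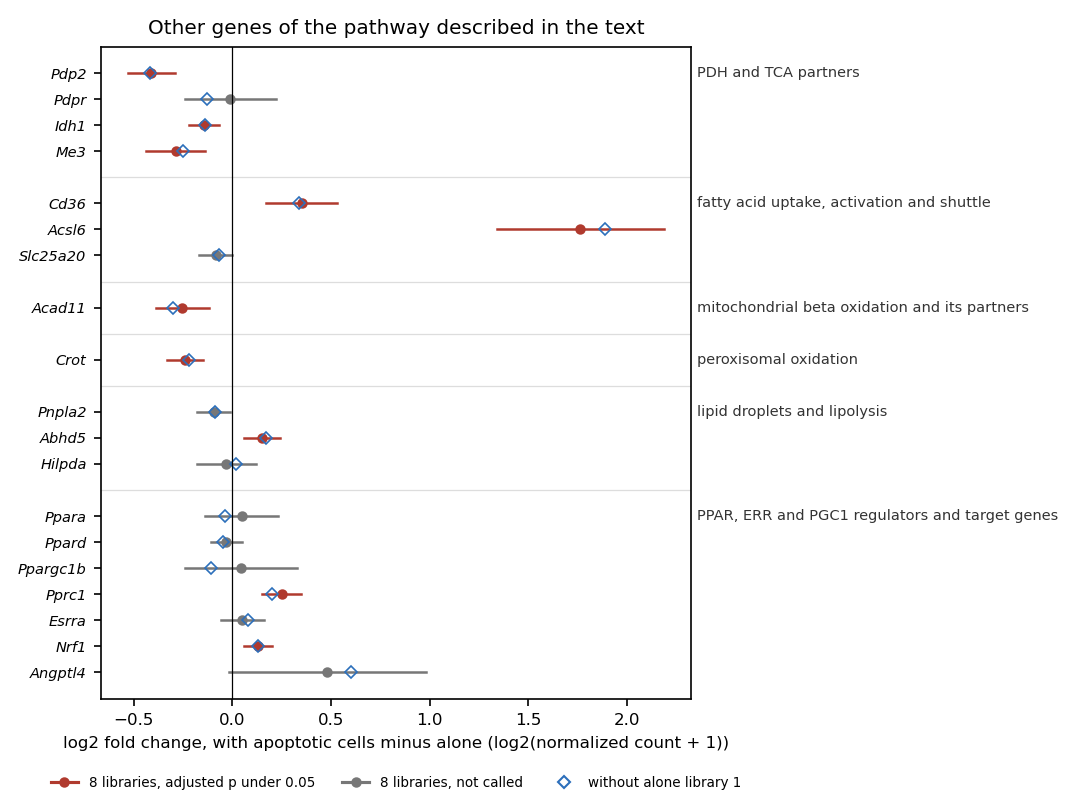
Log2 fold change (circles) with its 95% interval (lines) for the other genes of the pathway described in the text, called (red) or not (grey), and the value without alone library 1 (diamonds). Acsl6 at 1.76 lies far to the right, and Pdp2 at -0.41 is the lowest.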

How the data were processed

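RNA was sequenced from 8 libraries, 4 per group. The submitters' processing notes name FastQC, STAR, featureCounts and DESeq2 but no version of any. Genome build, annotation and strand setting were not given in the sources used here. The authors deposited 1 table of signal per gene and library, each column of which is gene counts scaled by its own size factor, as its values show. Throughout, 100% of values were whole multiples of 1 read within 0.01 reads, so reads were recovered. Per the file headers, the deposited table also holds log2 fold changes with a standard error, the score of a test and its p-values. These were not used, except that the authors' deposited table calls 6 of the listed genes higher and 0 lower. A row without a gene name, with 0.14 to 0.176% of reads, was left out.

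Columns were matched to libraries by replicate number and the letters AC in their names, and the further prefix GFP in them is not explained by the labels. Limma-trend (limma 3.58.1, R 4.3.3) was fitted to log2(normalized count + 1) over all genes averaging 10 normalized counts or more, with a single term for group and Benjamini-Hochberg adjustment over 13494 genes. On the recovered reads edgeR 4.0.16 called 838 genes higher and 726 lower, and DESeq2 1.42.0 called 879 and 716. Figures were drawn with matplotlib 3.10.9.

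The genes, the further list, the markers and the tests were chosen with earlier results of these data known. The rule for naming allowed all 50 genes, the called genes of the further list and 12 fixed ones, of which Acot1 was not analysed here. Some genes of the further list and of the markers are counted but not reported by name. Pdpr was named after its values were seen. All 49 matched symbols occur in the RefSeq table for the species. No gene lengths or sequences were used, so levels of different genes are not compared per length. The labels do not say whether the replicate numbers pair the cultures, and the main fit did not pair them. Alternatives were TMM scaling, a pseudocount of 5, no filter, a mean of at least 100, a replicate block, array weights, both count tests, each library left out and RefSeq symbols for LOC names.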

Additional observations from a re-analysis of the deposited data

Results flagged for a closer look

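Within groups of 4 libraries, 140 sets of values (of 48 listed genes and 22 further genes) were examined for a library far from the other 3, by Dixon's gap-to-range ratio at its 95% critical value. Chance flags about 1 in 20 groups, and 14 were flagged, of which 6 were in alone library 1. In that library Mpc1 (567 normalized counts, others 490 to 496), Sdhc (6177, others 5203 to 5361) and Abhd5 (1047, others 980 to 988) were high. Pdk1 (1026, others 1087 to 1099), Ogdh (3886, others 4564 to 4682) and Cpt1a (3677, others 4160 to 4189) were low there.

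Of the co-cultures, library 1 was low in Mpc1 (451, others 495 to 503), library 2 was high in Decr1 (1566, others 1509 to 1518) and library 4 was high in Cd36 (155, others 145 to 146) and low in Pdpr (881, others 987 to 1001). Co-culture library 3 was low in Sdhc (5148, others 5298 to 5321) and high in Hadha (6197, others 6106 to 6119) and Pdp2 (540, others 477 to 485). Alone library 3 was high in Cd36 (130, others 110 to 112).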

How the results depend on the processing

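Of the listed genes, 6 were called higher with all libraries, 3 under TMM scaling, 3 with no filter on low values and 2 with the replicate block, and 2 to 9 with 1 library left out. In all 16 alternatives none was called lower. Where 2 were called higher (4.17%), so were 3.08 to 3.69% of all genes tested, and where 3 were (6.25%), 3.85 to 5.91%, so those shares lay near the background. No called gene changed sign. All-gene counts of 858 higher and 716 lower became 498 and 400 with the replicate block, 1804 and 1674 with array weights, and 416 to 1811 and 356 to 1694 with 1 library left out. For the further genes of the pathway, 5 higher and 6 lower became 2 and 3 with the replicate block, 9 and 11 with array weights, and 2 to 9 and 2 to 13 with 1 library left out. Same-numbered libraries had correlations of deviations of -0.0261, 0.181, 0.121 and -0.262, and not every library correlated best with its own number. Alone library 1 stood far from its group and moves the deviations of the other alone libraries, so these correlations cannot exclude pairing. The labels do not say that a number pairs cultures, so the numbers were not taken as pairs in the main fit. Under the block, Pdk4 (adjusted p = 0.0629), Acadvl (0.0918), Plin2 (0.0552) and Cpt2 (0.106) were not called by limma. RefSeq symbols for LOC names added no call. Shares within enzyme families per coding length were not run, since no lengths were used. Depth limits Acads most, with 71 reads in 1 library.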
